A study of Homo sapiens with 6 samples.

Results

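Replication-independent histone variant genes supply histones outside S phase, and 8 of them are described here: H1FX, H2AFZ, H2AFX, H2AFY, H2AFV, H2AFJ, H3F3A and H3F3B. The genes were taken by symbol from 63677 gene rows of a read count table, in which a list of 9 symbols matched 9 rows. Each symbol had 1 Ensembl identifier, so the provision of taking the identifier with the highest total count never came into play. H1FX lies on chromosome 3, H2AFZ on 4, H2AFX on 11, H2AFY on 5, H2AFV on 7, H2AFJ on 12, H3F3A (ENSG00000163041) on 1 and H3F3B (ENSG00000132475) on 17. The list was drawn up with earlier results of these libraries known and was selected on a measured difference in counts between doxycycline and DMSO. Counts over the members are therefore given as a description.

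RNA was sequenced from RPMI-8402, a human T-cell acute lymphoblastic leukaemia line carrying Cas9 stably. The doxycycline group (DOX) received the drug, which induces guide RNAs against MYC and MYCN, and the DMSO group received solvent only, both for 72 hours with 3 libraries each. The genotype label names MYCN_knockout in DOX and control in DMSO, while one protocol text names MYC alone as the target. The labels do not state if the 3 libraries per group were grown as separate cultures or if the cells were 1 clone. The p-values here thus reflect library-to-library spread, part of which may be technical. No library analysed here had DOX without guides, so the drug and the guides cannot be told apart.

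Histones package DNA into nucleosomes. Most are made in S phase from clustered genes whose messages end in a stem-loop, whereas replication-independent variants come from dispersed, mostly polyadenylated genes and are deposited throughout the cell cycle. Linker histones such as H1.10 bind the DNA between nucleosomes, H3.3 is the H3 variant deposited at active genes and at telomeres, H2A.Z flanks promoters, H2A.X is phosphorylated around DNA breaks, and macroH2A carries a large additional domain and is associated with repressed chromatin.

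Near-identical copies can share reads, which bears most on H3.3. The start of the coding sequence is therefore shown for its 2 genes and for the pseudogene H3F3AP4. H3F3A and H3F3B encode the same protein with different codons. The 90 bases from the start codon are given 5′ to 3′ from GENCODE 29 transcripts, and capitals mark bases that differ from H3F3A.
H3F3A: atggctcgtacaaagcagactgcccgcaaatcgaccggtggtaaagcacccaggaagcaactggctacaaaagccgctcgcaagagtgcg
H3F3B: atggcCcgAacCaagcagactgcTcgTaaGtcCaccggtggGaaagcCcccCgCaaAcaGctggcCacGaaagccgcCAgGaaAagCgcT
H3F3AP4: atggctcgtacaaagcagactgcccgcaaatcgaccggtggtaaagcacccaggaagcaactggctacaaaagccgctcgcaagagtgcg
Over the whole coding sequence of 411 bases, H3F3B matched H3F3A at 323 bases (78.6%), while H3F3AP4 matched H3F3A at all 411. Of the 1209 windows of 100 bases in an H3F3A transcript, 312 (25.8%) occurred exactly in H3F3AP4, against 16 of 2606 windows of H3F3B that occurred exactly in any other gene (H3F3C). A single read of 100 bases from a shared window is the same in H3F3A and H3F3AP4, whereas no window was shared between H3F3A and H3F3B.

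The H2A.Z pair is shown in the same way, with capitals marking bases of H2AFV that differ from H2AFZ.
H2AFZ: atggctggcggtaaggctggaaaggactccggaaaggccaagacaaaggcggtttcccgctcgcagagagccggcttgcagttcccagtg
H2AFV: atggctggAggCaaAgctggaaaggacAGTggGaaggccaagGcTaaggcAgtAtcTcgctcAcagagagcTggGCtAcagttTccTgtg
These genes matched at 311 of 387 coding bases (80.4%), and no window of 100 bases in H2AFZ occurred in another gene. In H1FX, H2AFX, H2AFY and H2AFJ no window was shared either, and in H2AFV 54 windows were shared with the pseudogene H2AFVP1.

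The members' promoters were read from RefSeq (GRCh38.p14), which matched all 8 genes. The 250 bases upstream of the start of H3F3A and H3F3B are shown because their fold changes have opposite signs. Both are given 5′ to 3′ on the gene's strand. For each member the most upstream listed start was used, of 4 for H3F3A and 2 for H2AFY. Other starts were not described, and which start these cells use was not tested. A link between motifs and fold changes was not tested either. Capitals mark the motifs CCAAT (the CCAAT box), GGGCGG (the GC box) and TATAAA (the TATA box) on either strand.
H3F3A (chr1:226061581-226061830, plus strand): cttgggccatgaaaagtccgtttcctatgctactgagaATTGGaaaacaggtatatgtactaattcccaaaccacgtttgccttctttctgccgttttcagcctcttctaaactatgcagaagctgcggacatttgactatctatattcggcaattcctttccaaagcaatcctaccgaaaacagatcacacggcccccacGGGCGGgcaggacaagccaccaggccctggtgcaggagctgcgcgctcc
H3F3B (chr17:75779780-75780029, minus strand): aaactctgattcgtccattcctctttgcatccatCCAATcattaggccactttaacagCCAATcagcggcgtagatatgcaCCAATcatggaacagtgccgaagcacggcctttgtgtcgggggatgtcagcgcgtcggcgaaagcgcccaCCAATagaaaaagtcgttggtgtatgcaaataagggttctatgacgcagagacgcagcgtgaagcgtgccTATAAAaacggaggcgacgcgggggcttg
The H3F3B window held 4 CCAAT boxes and 1 TATA box, and the H3F3A window held 1 CCAAT box and 1 GC box. A CCAAT box stood in 7 of the 8 member promoters and in 32.0% of 35116 promoter windows of the same length. Those windows cover every listed start, with several for some genes, against 1 window per member. CACGTG, the E-box bound by MYC proteins, stood in 0 of the 8 and in 6.3% of all windows, and AAACACA, a motif known from linker histone promoters, in 0 of the 8 and in 4.8%. The GC box stood in 3 of the 8 (42.6% of all windows) and the TATA box in 4 (10.7%). Both strands were searched, and a match is a description of letters only. No motif overlapped another in the 2 windows shown.

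Library totals ran from 28602145 to 28911373 counts in DOX and from 28952786 to 29204148 in DMSO. For MYCN, a target of the guides, the range was 46.2 to 53.7 CPM (read counts scaled to library size by TMM) in DOX and 76.8 to 109.5 CPM in DMSO. Its log2 fold change was -0.87 ± 0.13 (edgeR adjusted p = 0.0726, DESeq2 adjusted p = 8.05e-06). MYC ranged over 192.8 to 205.9 CPM in DOX and 201.5 to 278.9 CPM in DMSO, with overlap (-0.30 ± 0.12, edgeR adjusted p = 0.176). A count does not show whether a transcript carries an edit. The leukaemia label was checked against 16 T lymphoblast markers, of which 11 averaged at least 1 CPM (summed 1740 to 1800 CPM in DOX and 1750 to 1910 CPM in DMSO). CD1A, CD4, CD8A, CD8B and RAG2 averaged below that. Of 4 B cell markers 1 reached it (summed 3.05 to 4.17 CPM in DOX and 2.64 to 3.56 CPM in DMSO). Of 5 myeloid markers 0 did (summed 1.35 to 1.53 CPM in DOX and 0.71 to 1.32 CPM in DMSO). Of 4 fibroblast or epithelial markers 1 did, COL1A1, and the 4 together summed to 9.46 to 10.4 CPM in DOX and 2.87 to 7.11 CPM in DMSO. The part of these low levels in the results below was not tested. The DMSO library numbered 11 in the count table stood apart from its group. Over 9311 genes it lay 0.18 to 0.21 from the 3 DOX libraries (root mean square of log2 CPM differences), but 0.43 from DMSO 23 and 0.41 from DMSO 35. The fold changes of the members are given with and without DMSO 11. It was singled out from these same values, as the DMSO library nearest to DOX. Without it edgeR called 49.4% of 16412 genes, against 0.0313% of 15949 with all libraries. Adjusted p-values without DMSO 11 are therefore given as a description only.

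Of the 8 genes, 7 passed the filter on low counts. H2AFJ, an H2A variant linked to senescence in human fibroblasts, had 1 read in DOX 36 and 0 in the other libraries, and a count of 0 allows a level of up to 0.101 to 0.107 CPM by counting error alone. Its level was not detectable at this depth.

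**Figure D1:**
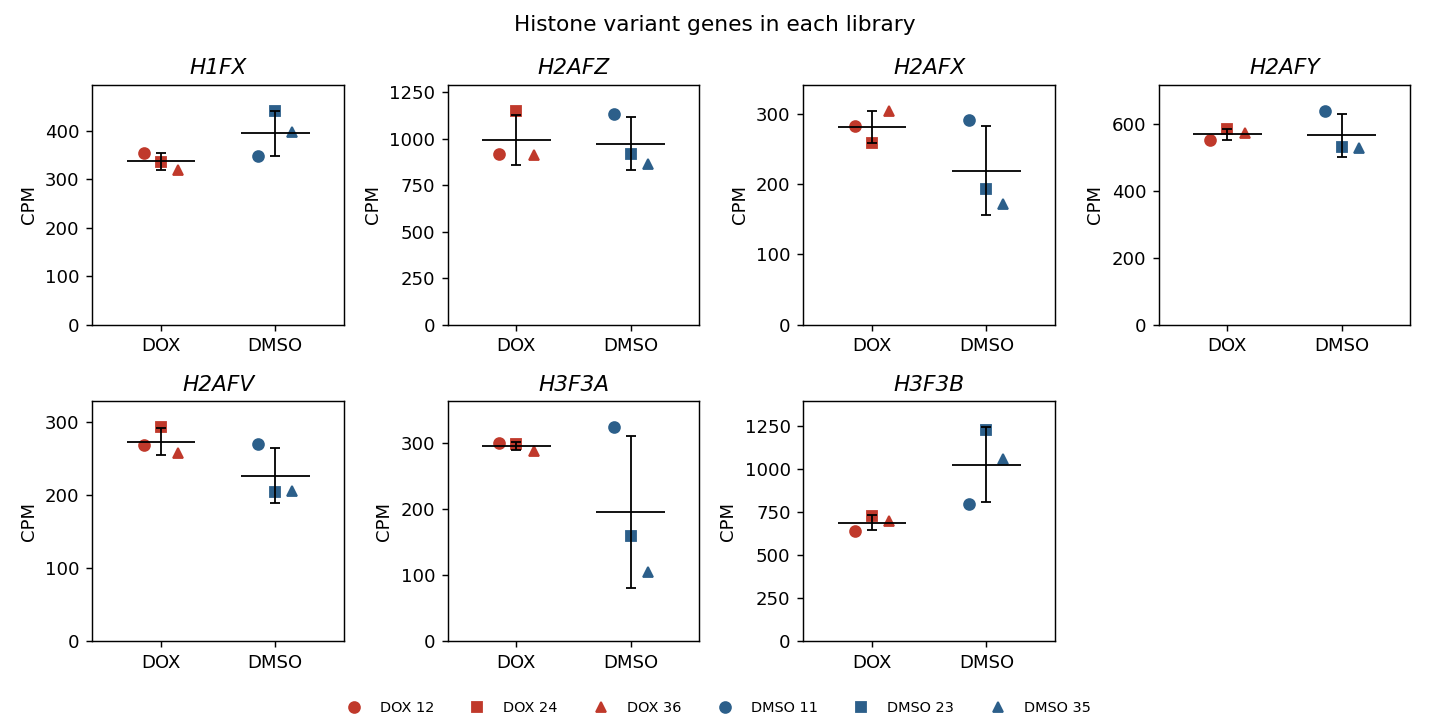
CPM of the 7 histone variant genes that passed the filter, per library, with DOX on the left and DMSO on the right of each panel; bars give mean and SD over 3 libraries. H3F3B lies lower in every DOX library, and DMSO 11 (blue circle) lies near the DOX libraries for H2AFX, at 291 CPM, and for H3F3A, at 324 CPM.

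H1FX, the gene of the linker histone H1.10, had groups that overlapped. It stood at 354 CPM in DOX 12, 336 in DOX 24 and 320 in DOX 36, against 348 CPM in DMSO 11, 441 in DMSO 23 and 397 in DMSO 35. The DOX libraries overlapped with DMSO 11 only. The mean was 336.7 ± 17.4 CPM in DOX and 395 ± 46.6 CPM in DMSO (SD, n = 3 each). Its log2 fold change (DOX over DMSO) was -0.23 ± 0.11 (SE), which edgeR did not call (Benjamini-Hochberg adjusted p = 0.216 over 15949 genes), -0.32 without DMSO 11 (adjusted p = 0.00111) and -0.15 without DMSO 23 (adjusted p = 0.503). In bulk RNA, fewer cells that express a gene and less RNA per cell cannot be told apart.

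The 2 genes of H3.3 had fold changes of opposite sign, and only H3F3B kept its groups apart. It stood at 643 CPM in DOX 12, 728 in DOX 24 and 699 in DOX 36, against 795 CPM in DMSO 11, 1227 in DMSO 23 and 1057 in DMSO 35. Every DOX library was below every DMSO library, as in 15.6% of all genes tested. The mean was 690 ± 43.3 CPM in DOX and 1026 ± 217.6 CPM in DMSO (SD, n = 3 each), and the log2 fold change was -0.57 ± 0.16. EdgeR did not call it (adjusted p = 0.1), DESeq2's Wald test called it lower (adjusted p = 0.0104), and the authors' deposited table gives it an adjusted p of 0.0107. Without DMSO 11, edgeR called it lower at -0.73 (adjusted p = 4.32e-07).

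H3F3A stood at 301 CPM in DOX 12, 299 in DOX 24 and 288 in DOX 36, against 324 CPM in DMSO 11, 159 in DMSO 23 and 104 in DMSO 35. The DOX libraries were close together and DMSO 11 exceeded all of them. Its standard deviation on the log2 CPM scale was 0.03 in DOX and 0.83 in DMSO, where the median of the 9311 genes of at least 10 CPM was 0.06 in DOX and 0.17 in DMSO. The mean was 296 ± 6.69 CPM in DOX and 196 ± 115 CPM in DMSO, with a log2 fold change of 0.60 ± 0.34 (edgeR adjusted p = 0.292, DESeq2 adjusted p = 0.396). Without DMSO 11 it was 1.17 and called higher (edgeR adjusted p = 0.00125), and without DMSO 35 it was 0.29 (edgeR adjusted p = 0.59). The pseudogene H3F3AP4, identical to H3F3A over the coding sequence shown above, held 77.5, 84.5 and 72.3 CPM in DOX 12, 24 and 36, against 62.5, 37.9 and 34.3 CPM in DMSO 11, 23 and 35. Its groups did not overlap, with DOX above, as in 14.6% of all genes tested. The log2 fold change of H3F3AP4 was 0.80 ± 0.21 (edgeR adjusted p = 0.0959, DESeq2 adjusted p = 0.00872), where DESeq2 called 3.08% of all genes higher. How far the H3F3AP4 reads are H3F3A reads was not tested.

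**Figure D2:**
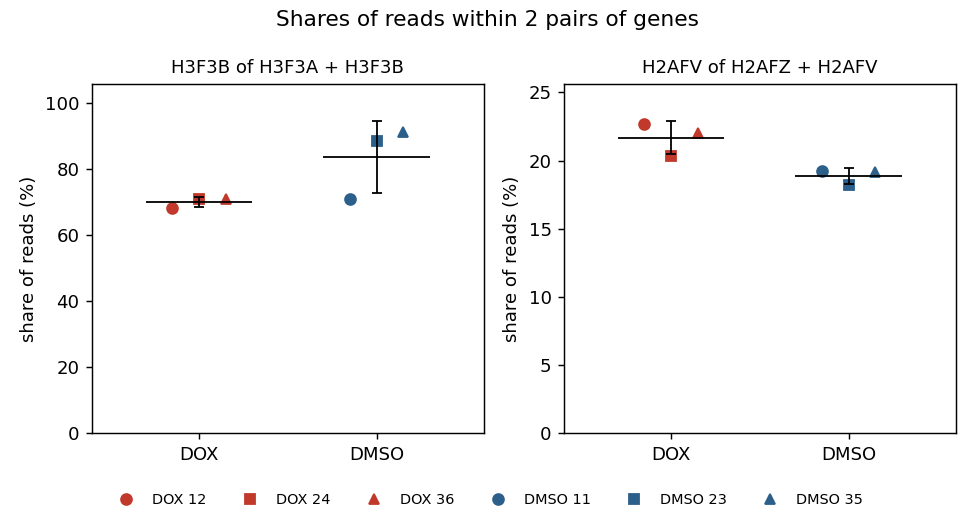
Share of reads (%) of H3F3B among the H3.3 genes and of H2AFV among the H2A.Z genes, per library, with DOX left of DMSO; bars give mean and SD over 3 libraries. The H3F3B share is near 70% in DOX and in DMSO 11, and 88.5% and 91.0% in the other DMSO libraries.

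A share within a library does not depend on scaling. H3F3B made up 68.1% of the H3.3 reads in DOX 12, 70.9% in DOX 24 and 70.8% in DOX 36, against 71.0% in DMSO 11, 88.5% in DMSO 23 and 91.0% in DMSO 35. DMSO 11 lay just above the highest DOX library. The difference DOX minus DMSO was -13.6 percentage points, with a two-sided exact permutation p = 0.1, the smallest that 3 libraries against 3 allow, and an adjusted p of 0.133 over 4 such tests. Without DMSO 11 it was -19.9 points. Counting H3F3AP4 reads as H3F3A gave -15.8 points, a setting chosen after seeing the data. The sum of both H3.3 genes was 943 CPM in DOX 12, 1027 in DOX 24 and 987 in DOX 36, against 1119 CPM in DMSO 11, 1385 in DMSO 23 and 1161 in DMSO 35. The groups of this sum did not overlap, with DOX below, as in 15.6% of single genes tested. H3F3B, whose own groups did not overlap, made up most of the sum in every library. The difference DOX minus DMSO was -236 CPM (exact permutation p = 0.1, adjusted p = 0.133), and -154.4 CPM without DMSO 23.

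H2AFZ, the more abundant of the 2 H2A.Z genes, had overlapping groups. It stood at 921 CPM in DOX 12, 1152 in DOX 24 and 913 in DOX 36, against 1135 CPM in DMSO 11, 920 in DMSO 23 and 865 in DMSO 35. One library in each group was high. The log2 fold change of H2AFZ was 0.03 ± 0.14 (edgeR adjusted p = 0.899), and 0.16 without DMSO 11 (adjusted p = 0.172). The sign turned when DOX 24, DMSO 23 or DMSO 35 was left out.

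H2AFV, the second H2A.Z gene, stood at 270 CPM in DOX 12, 294 in DOX 24 and 258 in DOX 36, against 270.2 CPM in DMSO 11, 205 in DMSO 23 and 206 in DMSO 35. DMSO 11 lay inside the DOX range. Its log2 fold change was 0.27 ± 0.13 (edgeR adjusted p = 0.209), and 0.42 without DMSO 11 (adjusted p = 5.35e-05). H2AFV made up 22.7% of the H2A.Z reads in DOX 12, 20.3% in DOX 24 and 22.1% in DOX 36, against 19.2% in DMSO 11, 18.2% in DMSO 23 and 19.2% in DMSO 35. Every DOX library exceeded every DMSO library, with a mean difference of 2.79 points (exact permutation p = 0.1, adjusted p = 0.133). Among single genes tested, 14.6% had every DOX library above every DMSO library, and shares of other gene pairs were not computed. The sum of both H2A.Z genes was 1269 ± 153 CPM in DOX and 1200 ± 180 CPM in DMSO, with overlapping groups (exact permutation p = 0.5, adjusted p = 0.5).

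H2AFX, whose gene gives both a stem-loop and a polyadenylated message, stood at 283 CPM in DOX 12, 258 in DOX 24 and 304 in DOX 36, against 291 CPM in DMSO 11, 193 in DMSO 23 and 172 in DMSO 35. DMSO 11 lay inside the DOX range. Its log2 fold change was 0.36 ± 0.18 (edgeR adjusted p = 0.240), 0.62 without DMSO 11 (adjusted p = 1.65e-06) and 0.21 without DMSO 35 (adjusted p = 0.547). The gene count does not tell the 2 message forms apart. H2AFY (macroH2A1) stood at 552 CPM in DOX 12, 585 in DOX 24 and 572 in DOX 36, against 640.5 CPM in DMSO 11, 530 in DMSO 23 and 528 in DMSO 35. Its log2 fold change was 0.01 ± 0.11 (edgeR adjusted p = 0.969), and 0.11 without DMSO 11 (adjusted p = 0.215). The count covers all its splice forms together. On the opposite strand H2AFY overlaps C5orf66, H3F3B overlaps UNK with 9432 reads over all libraries, and H1FX overlaps H1FX-AS1 with 328. Here the libraries were strand-specific per the labels, while the strand setting of the counting was not given in the sources used here.

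**Figure D3:**
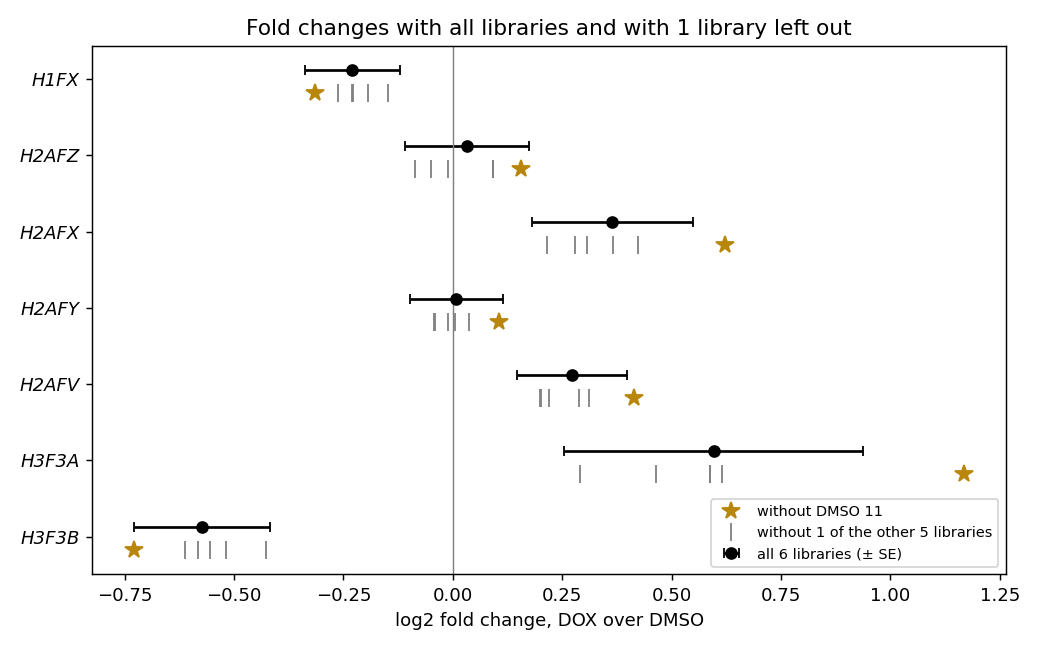
Log2 fold change (DOX over DMSO) of the 7 genes with all 6 libraries (black, ± SE), without DMSO 11 (gold star) and without 1 of the other libraries (grey ticks). Without DMSO 11 each of the 7 values lies farther from 0, as for H3F3B at -0.73 and H3F3A at 1.17.

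Counted over the members, edgeR called 0 of 7 at an adjusted p of 0.05, where it called 0.0313% of all genes. At an unadjusted p under 0.05 it had 1 of 7, H3F3B, where 26.0% of all genes passed. DESeq2 called the same gene lower and 0 higher, where it called 9.96% of 13869 genes, 6.89% lower and 3.08% higher. The list was chosen with this contrast known, so nothing is read from these counts. Without DMSO 11, edgeR called 5 of 7, with H1FX and H3F3B lower and H2AFX, H2AFV and H3F3A higher, in a fit that called 49.4% of 16412 genes, 25.7% lower and 23.7% higher. The groups did not overlap in 1 of 7 members, H3F3B, with DOX below, against 30.2% of all genes (15.6% with DOX below and 14.6% with DOX above). Over the 7 members the median log2 fold change was 0.03, against -0.003 over all genes tested.

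**Figure D4:**
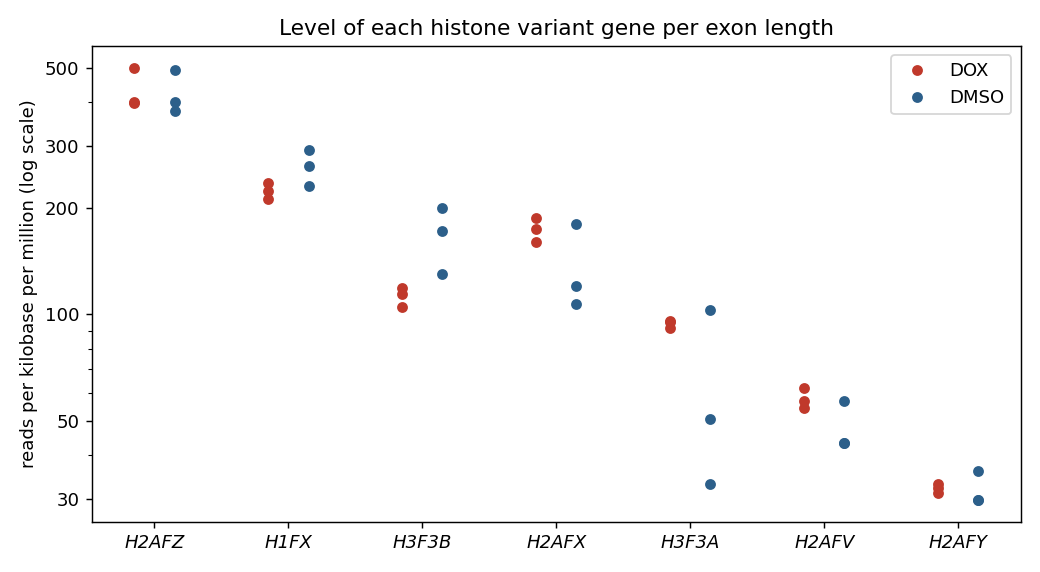
Reads per kilobase of exon, scaled as CPM, for each histone variant gene, 1 point per library on a log axis, DOX left of DMSO for each gene, ordered by the DMSO mean. H3F3B takes place 4 in DOX and place 3 in DMSO, and H2AFX place 3 in DOX and place 4 in DMSO.

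Levels between genes were compared as FPKM-like values, reads per kilobase of exon scaled as CPM, with exon lengths from GENCODE 29. H2AFZ was highest, at 432 ± 58.9 in DOX and 423 ± 61.9 in DMSO, which ranked 36 among 15462 genes. H1FX followed at 223 ± 11.6 in DOX and 262 ± 30.9 in DMSO. In DOX the order then ran H2AFX (175), H3F3B (112), H3F3A (94.1), H2AFV (57.7) and H2AFY (32.1). At this exon length no range of a gene overlapped that of the next. The order depends on the length used, which covers the exons of all transcripts of a gene. It was 17730 bases for H2AFY and 4749 for H2AFV, against 2789 and 752 in the coding transcripts searched for shared windows. An order by those coding transcripts was not computed, so the low places of H2AFY and H2AFV hold for the lengths used only. In DMSO the order after H1FX ran H3F3B (167), H2AFX (136), H3F3A (62.2), H2AFV (47.8) and H2AFY (31.9). There the ranges overlapped between H3F3B and H2AFX and between H3F3A and H2AFV, and between no other neighbours in that order. With the longest transcript as the length, 4 of the 7 genes kept their place in the order over all libraries, with H3F3B moving from place 4 to place 2.

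Variant histones are placed by chaperones and by ATP-driven exchange complexes, and a list of 34 such genes was tested. EdgeR called 0 of 34, and 7 of 34 had an unadjusted p under 0.05, where 26.0% of all genes did. DESeq2 called 2 of 34 higher, where it called 3.08% of all genes higher, and 3 of 34 lower, where it called 6.89% lower. SRCAP, the motor of the complex that inserts H2A.Z, averaged 308 ± 23.0 CPM in DOX and 235 ± 31.1 CPM in DMSO (log2 fold change 0.39 ± 0.12, DESeq2 adjusted p = 0.0492). DMAP1 averaged 80.6 ± 6.34 CPM in DOX and 62.1 ± 3.25 CPM in DMSO (0.38 ± 0.09, DESeq2 adjusted p = 0.0229). YEATS4, which reads acetylated histones, averaged 65.6 ± 2.60 CPM in DOX and 89.5 ± 14.1 CPM in DMSO (-0.45 ± 0.12, DESeq2 adjusted p = 0.0207), and the helicase RUVBL1 averaged 124.5 ± 1.49 CPM in DOX and 155.3 ± 8.02 CPM in DMSO (-0.32 ± 0.08, DESeq2 adjusted p = 0.0185). The H3.3 chaperone DEK averaged 330 ± 4.07 CPM in DOX and 400.3 ± 27.2 CPM in DMSO (-0.28 ± 0.09, DESeq2 adjusted p = 0.0364). In edgeR the adjusted p-values of these 5 genes ran from 0.0912 to 0.116.

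The H3.3 chaperones HIRA and DAXX were not called by either tool, and neither was ATRX of the same list. HIRA averaged 30.1 ± 1.34 CPM in DOX and 29.9 ± 2.46 CPM in DMSO (log2 fold change 0.01 ± 0.10, edgeR adjusted p = 0.956). The log2 fold change of DAXX was -0.10 ± 0.08 (edgeR adjusted p = 0.458) and that of ATRX 0.04 ± 0.12 (edgeR adjusted p = 0.845). ANP32E, which removes H2A.Z, had 0.10 ± 0.13 (edgeR adjusted p = 0.645), and was called higher without DMSO 11 (edgeR adjusted p = 0.00699). The median of the list was 0.04, and the groups did not overlap in 3 of 34 genes with DOX above and 6 with DOX below, against 14.6% and 15.6% of all genes. Without DMSO 11, edgeR called 13 of the 34 higher, where it called 23.7% of all genes higher, and 6 lower, where it called 25.7% lower.

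Of 15 further linker and variant histone genes, 4 passed the filter. EdgeR called 0 of 4 (1, HIST1H1C, at an unadjusted p under 0.05, where 26.0% of all genes passed), and DESeq2 called 0, where it called 9.96% of all genes. Without DMSO 11, edgeR called HIST1H1C and CENPA higher and H3F3C lower (adjusted p = 0.00952 for HIST1H1C, 0.00363 for CENPA and 0.00129 for H3F3C), in the fit that called 49.4% of all genes. H3F3C had few reads, 14, 4 and 9 in DOX 12, 24 and 36, against 3, 31 and 26 in DMSO 11, 23 and 35. How far these are H3F3B reads was not tested. HIST1H1C, a replication-dependent linker histone, averaged 6.74 ± 0.53 CPM in DOX and 5.09 ± 0.46 CPM in DMSO (log2 fold change 0.41 ± 0.14, edgeR adjusted p = 0.129). For HIST1H1C every DOX library was above every DMSO library, as in 14.6% of all genes tested. CENPA, the centromeric H3 variant, averaged 66.8 ± 5.25 CPM in DOX and 58.5 ± 6.17 CPM in DMSO (0.19 ± 0.10, adjusted p = 0.265). H2AFY2 (macroH2A2) averaged 1.31 ± 0.19 CPM in DOX and 1.73 ± 0.04 CPM in DMSO (edgeR adjusted p = 0.227). For H2AFY2 every DOX library was below every DMSO library, as in 15.6% of all genes tested. H3F3C averaged 0.31 ± 0.17 CPM in DOX and 0.68 ± 0.50 CPM in DMSO, with overlapping groups.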

How the data were processed

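The submitters' processing notes name STAR 2.5.2a, featureCounts, DESeq2 1.12.4 and build hg19, with no role or order. The authors deposited unnormalized counts of reads by Ensembl gene, and a table with, per the file headers, log2 fold changes, standard errors and adjusted p-values. Its direction is DOX over DMSO: over 9309 genes of at least 10 CPM its values correlated at 0.9999 with those from the counts, and 98.66% had the same sign. Sources used here do not give the annotation release or strand setting. Libraries were assigned to groups by column name, since the column numbers are in no label. The 92 spike-in rows held 0 counts and were left out.

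Counts were filtered with filterByExpr, scaled by TMM and put through the robust quasi-likelihood F test of edgeR 4.0.16 (R 4.3.3), adjusted over 15949 genes by Benjamini-Hochberg at 0.05. The standard error is the log2 fold change divided by the square root of F. DESeq2 1.42.0 was an alternative. Log2 CPM used a prior count of 2. Tests were tried on simulated data. The limit given for H2AFJ covers counting error only, while SD and SE include the spread between libraries. Shares and sums were compared by two-sided exact permutation of libraries. Precision is set by 3 libraries per group. Exon lengths and transcripts came from GENCODE 29 and promoters from RefSeq, both of another build than hg19.

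The members and lists were chosen with earlier results of these data known. The genes named were the members, MYC and MYCN, from each list up to 4 called genes per direction or the 2 most expressed. H3F3AP4, HIRA, DAXX, ATRX, ANP32E, H2AFY2, H3F3C and antisense partners were added after their values were seen. One listed gene is not reported here. Alternatives were other scalings, other filters, DESeq2 and leaving out each library.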

Additional observations from a re-analysis of the deposited data

How the results depend on the processing

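No paired analysis was possible because the count columns carry none of the replicate numbers of the labels. The choice of test and the removal of the filter moved the counts of calls. DESeq2 called 1382 genes, 1 histone variant and 5 chaperones or exchange factors, and without a filter edgeR called 1761, 1 and 3, while the filtered edgeR fit called 0 variants and 0 chaperones. With 1 library left out, edgeR called 0 to 8109 genes, 0 to 5 variants and 0 to 19 chaperones, and each upper value is the fit without DMSO 11. Leaving out any other library gave 0 calls, with fewer libraries in the fit. With the longest transcript as length, an alternative chosen after seeing the data, 4 of 7 places in the order of levels were kept. The sum of the H2A.Z genes differed by -19.2 to 171.4 CPM with 1 library left out, and its sign turned without DOX 24. H2AFZ ran from -0.086 to 0.156 and H2AFY from -0.043 to 0.105 on the log2 scale, and H2AFY was at -0.005 without a filter. The H3.3 sum differed by -287.6 to -154.4 CPM, H2AFX ran from 0.215 to 0.623 and H3F3A from 0.290 to 1.17 on the log2 scale with 1 library left out. The H3F3B share differed by -19.9 to -9.84 points and the H2AFV share by 2.30 to 3.47 with 1 library left out. The causes were not tested.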
